A study of Homo sapiens with 8 samples.

Results

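GABRA3 and GABRE encode subunits of the GABA-A receptor and lie near each other on the long arm of chromosome X. They were picked by name from the 3 deposited gene tables of the study, as 2 of the 1221 genes listed in at least 1 table. The choice rested on their being listed, so their own fold changes and p-values are given as a description and carry no test here. Besides the pair, 14 further subunit genes were looked up in the tables, so that 16 genes, a part of the family, are covered here. GABRG1, the other one of these 16 that was listed, is given beside the pair.

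The study sequenced total RNA, depleted of ribosomal RNA, of the human leukaemia cell line K-562, in 8 libraries that form 4 groups of 2. The controls were parental wild-type cells with a negative guide RNA. The altered groups were TASOR knockout cells, TASOR knockout cells expressing a FLAG-TASOR transgene, and parental wild-type cells expressing a FLAG-TASOR2 transgene, for which the labels name no guide. Per the labels' protocols, all cells went through Cas9 plasmid transfection and growth as single sorted colonies, and then received a lentivirus with a puromycin resistance vector that was empty or carried the transgene. No label says whether the 2 libraries of a group stem from different clones, and the p-values therefore reflect only the spread among these libraries, which may be technical. TASOR belongs to HUSH, the human silencing hub that keeps LINE-1 elements repressed, and TASOR2 is a protein of similar sequence.

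GABA-A receptors are chloride channels opened by the neurotransmitter GABA, and each channel is a ring of subunits drawn from several families. They carry most fast inhibition in the brain, and some subunits are also transcribed outside the nervous system and in tumour cells. The alpha subunits, of which GABRA3 encodes one, form the GABA site together with beta subunits and shape the response to benzodiazepines. The epsilon subunit, encoded by GABRE, yields receptors with little benzodiazepine response. All subunits of the family belong to the Cys-loop receptors, named for a short loop closed by a pair of cysteines in the extracellular part.

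The coding sequence of that loop is shown for both genes because it is the mark of the family. It was picked by the family's signature, so the identity given below holds for this short stretch and not for the whole coding sequences. The cysteine codons that close the loop are in capitals, 5′ to 3′ on the coding (minus) strand, from the GENCODE 29 transcripts on GRCh38.
GABRA3: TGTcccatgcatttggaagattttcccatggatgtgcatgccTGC
GABRE: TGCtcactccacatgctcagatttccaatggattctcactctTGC
The GABRA3 loop lies in exon 6 of 10 at chrX:152224782-152224826, and the GABRE loop in exon 5 of 9 at chrX:151961302-151961346. Of the 45 bases, 25 (55.6%) are identical. All 16 subunit genes covered hold a match to the loop's signature. Even so, 0 of the 50-base stretches of either main transcript occur on either strand in an annotated transcript of another gene, and the same count of 0 held for GABRG1.

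The promoter of GABRE was the one available for the pair, and it is shown for the GC boxes it holds. These are the 250 bases before the RefSeq start, chrX:151974677-151974926 of GRCh38.p14, on the minus strand. Capitals mark GGGCGG or its reverse complement, the GC box bound by Sp1 and Krüppel-like factors.
GABRE: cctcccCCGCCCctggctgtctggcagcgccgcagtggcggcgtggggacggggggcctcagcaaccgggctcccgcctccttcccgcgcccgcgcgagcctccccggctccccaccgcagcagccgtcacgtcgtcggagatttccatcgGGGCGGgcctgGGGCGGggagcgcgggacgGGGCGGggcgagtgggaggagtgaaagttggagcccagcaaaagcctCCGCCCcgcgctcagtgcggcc
The window held 5 GC boxes, 3 on the strand shown and 2 on the other, and 42.6% of 35116 promoter windows of this length held at least 1. Its GC content was 76.8% against a median of 58.0%, and it held 31 CpG dinucleotides against a median of 11. The TATA box TATAAA was searched on both strands and had 0 matches, where 10.7% of all windows held it. The same search for CCAAT had 0 matches against 32.0% of windows, and that for the GATA-factor motif AGATAA had 0 against 9.17%. A match or its absence is a description of the letters in this window only.

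Values per library are not part of the tables, so neither the level in each sample nor the sequencing depth can be given. Each deposited table compares 1 altered group with the controls and gives every listed gene its log2 fold change, its mean expression as the log2 of CPM (read counts scaled to library size), the F score of the test, and the p-value before and after adjustment. Genes are listed where the unadjusted p was below 0.05, the log2 fold change was beyond 1 in either direction and the log2 mean expression exceeded 1. A gene missing from a table therefore has no value there. Of the targeted genes, TASOR was listed in the knockout at -1.08 and TASOR2 with FLAG-TASOR2 at 2.26, in the authors' deposited tables. Their adjusted p in the deposited test was 0.9997 and 0.125. TASOR was not listed in the knockout with FLAG-TASOR and so has no value in that comparison.

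GABRA3 was listed in 1 of the 3 comparisons, as lower in TASOR knockout cells expressing FLAG-TASOR. Its log2 fold change in the authors' deposited table was -1.29, or 2.45-fold lower than in the controls, with an approximate SE of 0.48 derived from the F score. The approximate 95% interval ran from -2.49 to -0.09, so its upper end lay close to no change. In RNA from a whole culture, fewer cells with the transcript and less transcript per cell cannot be told apart. The unadjusted p was 0.0397 and the adjusted p 0.999 in the authors' deposited table. GABRA3 did not pass an adjusted p of 0.05, and no gene of this table did (0 of 261, all at an unadjusted p below 0.05 in the deposited test). By unadjusted p it ranked 207 of 261, near the weak end of the list, and 141 among the 176 genes listed as lower, ordered from the most negative fold change. Lower genes made up 67.4% of the list.

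GABRE was listed in 1 of the 3 comparisons as well, as lower in wild-type cells expressing FLAG-TASOR2. Its log2 fold change in the authors' deposited table was -1.46, or 2.76-fold lower, with an approximate SE of 0.54 and an approximate 95% interval from -2.79 to -0.14. The unadjusted p was 0.0351 and the adjusted p 0.366 in the authors' deposited table, so GABRE did not pass 0.05 either. It ranked 755 of 884 by unadjusted p and 352 of the 526 lower genes by fold change. Lower genes were 59.5% of the listed genes and 3.76% of the 14001 tested. Its log2 mean expression of 5.21 stood at the 85.4th percentile of the listed genes, while GABRA3, at 2.41, stood at the 41.4th percentile of its own table.

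The pair thus had estimates of similar size in different comparisons, each with an interval that ended close to no change. Both comparisons use the same control libraries, so the estimates are not independent. Neither gene was listed in the TASOR knockout without transgene. Whether either gene differs between the altered groups was not tested, since an unlisted gene has no value.

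**Figure D1:**
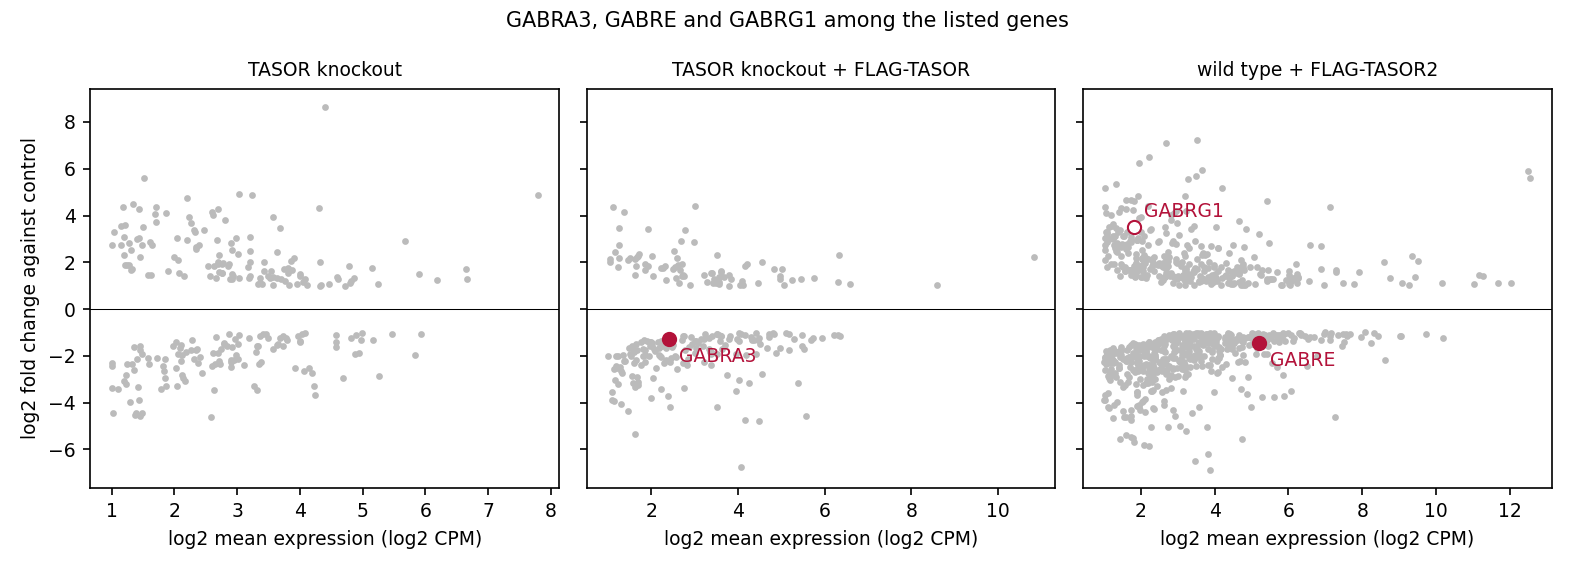
Log2 fold change against log2 mean expression (log2 CPM) for the genes listed in each comparison, 1 grey point per gene, without genes inferred to have no counts in a whole group. GABRA3 and GABRE (filled) lie below 0, GABRG1 (open) above, and the empty band around 0 comes from the listing threshold on the fold change.

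Group levels were derived from the deposited mean and fold change, taking the mean as that of 2 equal groups. This was checked on the shared controls: for genes listed in 2 tables, the control levels derived from each differed by a median absolute log2 of 0.08 (58 genes) to 0.13 (99 and 59 genes). The 90th percentile of that difference was 0.27 to 0.36, and the median signed difference 0.05 to 0.11. GABRA3 and GABRE were each listed in 1 table, so the check does not cover them. GABRA3 came to 7.55 CPM in the controls and 3.08 CPM in the knockout cells with FLAG-TASOR. GABRE came to 54.2 CPM in the controls and 19.7 CPM in the FLAG-TASOR2 cells. These levels are not per transcript length and are not compared between genes. By this derivation, reads were assigned to both genes in the control K-562 cells. The span of an antisense gene, described with the positions, overlaps GABRA3 and an exon of its main transcript. That transcript shared 0 of its 50-base stretches with annotated transcripts of other genes. Antisense RNA outside the annotated transcripts may still have given some of the reads assigned to GABRA3, which was not tested. A mean over 2 groups cannot fall below 0.5 times the control level, which gives a log2 mean of at least 1.92 for GABRA3 and 4.76 for GABRE in any comparison with these controls. Under this derivation, both exceed the listing threshold of 1 on mean expression. Why either gene was not listed in the other comparisons, including any part of its level in the p-value, was not tested.

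GABRG1, which encodes a gamma subunit, lay on the opposite side of the controls. It was listed as higher with FLAG-TASOR2 at 3.51 (adjusted p 0.281, approximate SE 1.05) in the authors' deposited table, with an interval from 0.94 to 6.08. Its derived level went from 0.569 CPM in the controls to 6.48 CPM. At so low a control level the fold change is rough. The difference between the estimates of GABRE and GABRG1 in this comparison was not tested. None of the 3 listed subunit genes covered passed an adjusted p of 0.05, and unlisted ones have no value. Of the genes listed, 0.373% for the knockout, 0% for FLAG-TASOR and 0.566% for FLAG-TASOR2 passed.

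**Figure D2:**
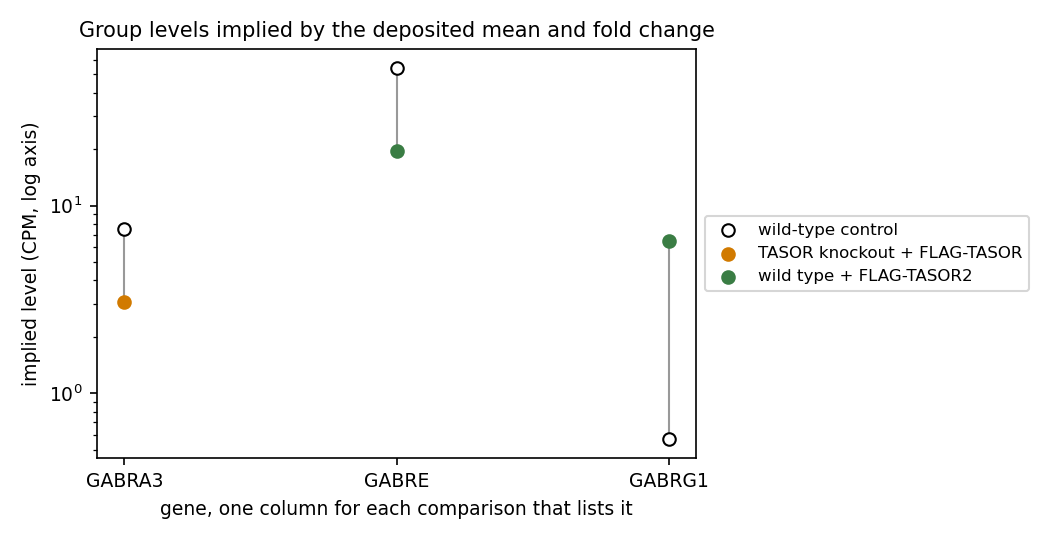
Level in CPM (log axis) derived for the wild-type controls (open) and the altered group (filled, coloured by comparison) of each listed subunit gene covered, 1 column per gene and comparison. The altered group lies below the controls for GABRA3 and GABRE and above them for GABRG1; the values have no per-library error and are not per transcript length.

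Of the 16 subunit genes covered, 2 were listed with FLAG-TASOR2, GABRG1 as higher and GABRE as lower. Of the tested genes, 6.31% were listed in that table, 2.56% as higher and 3.76% as lower. With FLAG-TASOR 1 of the 16 was listed, GABRA3 as lower, and in the TASOR knockout 0 of the 16, where 1.92% of tested genes were listed. How many of the 16 entered the authors' tests is not given in the tables, and they are a part of the family, so these counts are not compared with the percentages and are no count for the family. GABRD, GABRP and the rho subunit genes GABRR1, GABRR2 and GABRR3 were among those not listed in any table.

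On chromosome X, GABRE (chrX:151953124-151974680) and GABRA3 (chrX:152166234-152451358) are both on the minus strand and 192 kb apart, with 4 annotated genes wholly between them. GABRA3 spans 285 kb and GABRE 21.6 kb, while their coding sequences are close in length, at 1476 and 1518 bases. GABRQ, which encodes the theta subunit, begins 187 kb beyond GABRA3. Introns of GABRE hold the microRNA genes MIR224 and MIR452 on the same strand, and introns of GABRA3 hold MIR105-1, MIR767 and MIR105-2. None of these 5 was listed (0 of 5), where 1.92% of tested genes were listed in the knockout and 6.31% with FLAG-TASOR2. Whether genes this short, of 81 to 109 bases, were tested is not given, so no reading is drawn from that count. The antisense gene AC116666.1 overlaps 20.6 kb of GABRA3. No source used here says whether reads were counted by strand, so reads from the overlap cannot be told apart by strand.

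Within 500 kb of either gene, 0 of 36 other annotated genes were listed in any of the 3 tables. These include 18 protein-coding genes, among them several MAGE family genes. Within 1 Mb, 4 of 68 genes (5.88%) were listed with FLAG-TASOR2 and 0 in each of the other tables. Of all tested genes, 6.31% were listed with FLAG-TASOR2, but how many of the 68 were tested is not given, so the shares are not compared. Within 2 Mb, 13 of 136 genes (9.56%) were listed with FLAG-TASOR2, or 13 of 72 protein-coding genes (18.1%). The 4 genes within 1 Mb were all protein-coding, of 31 such genes (12.9%). All 4 were lower: PNMA6A at -1.80 (approximate SE 0.63), ZNF275 at -1.01 (0.26), ZFP92 at -2.03 (0.49) and HAUS7 at -1.29 (0.32) in the authors' deposited table. They lie 621 to 996 kb from GABRA3, on the side away from GABRE, and none had an adjusted p below 0.05, the lowest being 0.216. PNMA6A has paralogs nearby, and how the authors assigned reads that such copies may share is not stated. HAUS7 encodes a subunit of the augmin complex of the mitotic spindle, and ZNF275 and ZFP92 encode zinc finger proteins. GABRE thus had no listed neighbour on its own side within 1 Mb. Lower genes also prevailed on chromosome X as a whole. With FLAG-TASOR2 they were 67 of 80 listed genes on X (83.8%), GABRE among them, against 59.5% of all genes listed there. With FLAG-TASOR they were 29 of 30 (96.7%), GABRA3 among them, against 67.4% of all genes listed there. In the TASOR knockout, where neither gene was listed, 15 of 21 listed genes on X were lower (71.4%), against 48.9% of all genes listed there. The 3 tables share their controls. The part of this chromosome-wide lean in the values of GABRE and GABRA3 was not tested.

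**Figure D3:**
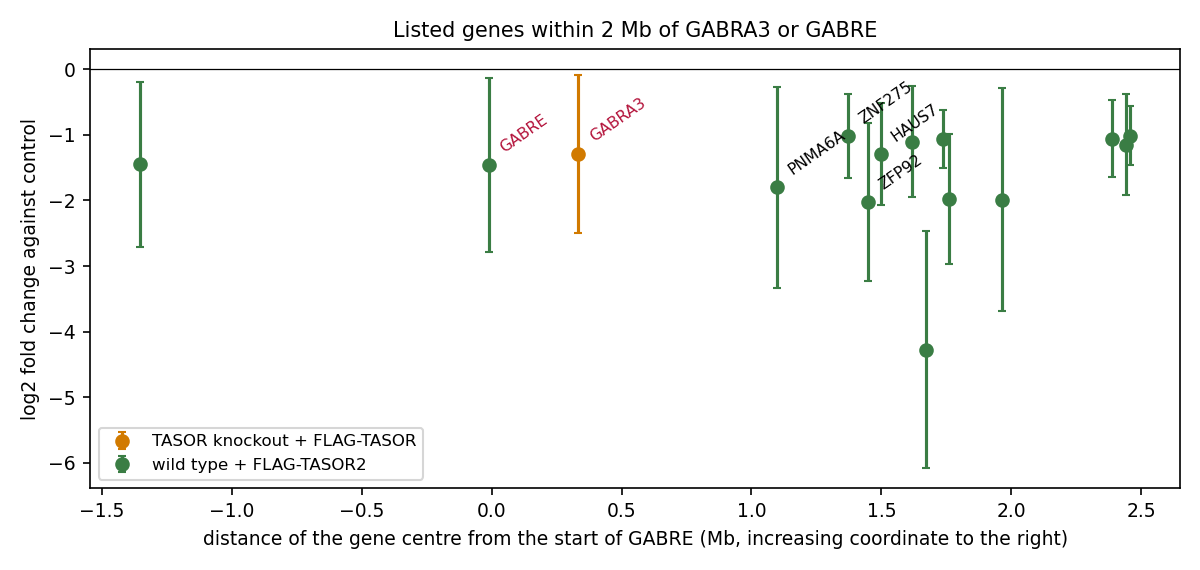
Log2 fold change (approximate 95% interval as bars) of listed genes against the distance of the gene centre from the start of GABRE in Mb, coloured by comparison, with names for the pair and for genes within 1 Mb of it. All 13 neighbours within 2 Mb were listed with FLAG-TASOR2 and lie below 0, and none lies within 500 kb of the pair.

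Genes that act with the receptor were counted from lists for assembly and anchoring, GABA synthesis, transport and breakdown, the GABA-B receptor, other Cys-loop receptors and chloride cotransporters. With FLAG-TASOR2, 5 of the 75 genes (6.67%) were listed, all as lower. Of all tested genes, 6.31% were listed in that table, 3.76% as lower. Lower genes were 59.5% of that table. How many genes of these lists entered the authors' tests is not given in the tables, so these shares are not compared. GAD1, which makes GABA from glutamate, was the 1 gene of 13 listed for synthesis, transport and breakdown, at -2.48 (adjusted p 0.345, approximate SE 0.87) in the authors' deposited table. It was listed with FLAG-TASOR too, at -2.41 (adjusted p 0.999, SE 0.88) in the authors' deposited table. GAD1 was therefore listed as lower in both comparisons in which a member of the pair was, against the same controls. Its derived control level was 17.2 and 17.4 CPM in the respective tables, against 3.08 and 3.27 CPM in the altered cells.

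Of 19 assembly and anchoring genes, 2 were listed in the knockout (1 higher, 1 lower), 0 with FLAG-TASOR and 2 with FLAG-TASOR2 (both lower). Over all tested genes, 1.92% were listed in the knockout, and 6.31% with FLAG-TASOR2, where 3.76% were lower. GPHN, which encodes the gephyrin scaffold beneath inhibitory synapses, was listed as higher in the knockout at 1.37 (adjusted p 1.00, approximate SE 0.42) in the authors' deposited table. PLCL2, related to a phospholipase and a partner in receptor trafficking, was listed as lower in the knockout at -2.07 (0.72) and with FLAG-TASOR2 at -2.40 (0.75) in the authors' deposited tables. Its relative PLCL1 was listed with FLAG-TASOR2 at -1.28 (0.52) in the authors' deposited table, with an interval that ended at -0.01.

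Among the genes covered, the one with the largest listed change was SLC12A7, a potassium-chloride cotransporter, at -5.57 (adjusted p 0.109, approximate SE 0.63) with FLAG-TASOR2 in the authors' deposited table. KCTD12, an auxiliary subunit of the metabotropic GABA-B receptor, was listed there at -3.92 (adjusted p 0.203, SE 0.87). No other chloride cotransporter gene or regulator on the list (0 of 10), neither GABA-B receptor gene, and none of the 27 other Cys-loop receptor genes was listed in any table. Of all tested genes, 1.92% were listed in the knockout and 6.31% with FLAG-TASOR2. How many of these unlisted genes were tested is not given, so no reading is drawn from their counts. None of the listed GABA system genes covered passed an adjusted p of 0.05, and unlisted ones have no value.

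**Figure D4:**
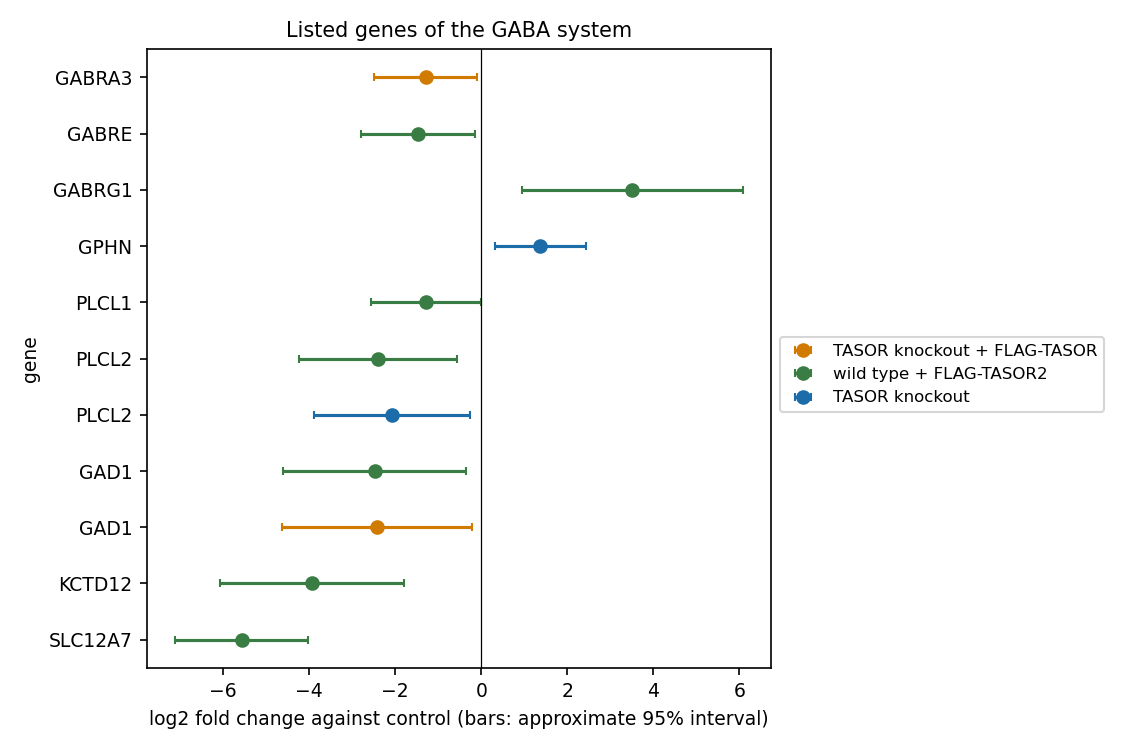
Log2 fold change against control for each listed gene of the GABA system covered here, 1 point per gene and comparison with its approximate 95% interval, coloured by comparison. Among the genes shown, GABRG1 and GPHN lie above 0 and the others below, and the interval of GABRA3 ends near 0.

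None of 15 neuronal, 4 epithelial or 4 fibroblast marker genes was listed in any table, and these markers therefore have no value here. Of all tested genes, 1.92% were listed in the knockout and 6.31% with FLAG-TASOR2. How many of these markers were tested is not given, so no reading is drawn from their counts. Of 17 erythroid and K-562 markers, HBE1 was listed with FLAG-TASOR at 2.24 (approximate SE 0.57), and HBA1, HBA2 and HBZ with FLAG-TASOR2 at 1.12, 2.04 and 1.38, in the authors' deposited tables. The 3 of 17 with FLAG-TASOR2 stand beside 2.56% of all tested genes listed there as higher. With FLAG-TASOR the number of genes tested could not be recovered, so the 1 of 17 has no such share beside it. Of the genes listed with FLAG-TASOR, 32.6% were higher, a share over listed genes that is not compared with 1 of 17. HBA1 and HBA2 are near-identical, so their separate values are uncertain. The 4 globin genes had derived control levels of 284 to 718 CPM. How many of the 17 were tested is not given in the tables, and the part of the globin genes in the values of GABRA3 and GABRE was not tested. No gene was named for a pattern like that of GABRA3 or GABRE, because each had a value in 1 table and a likeness over comparisons needs at least 2.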

How the data were processed

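RNA-seq of 8 K-562 libraries (NEBNext kits, 13 PCR cycles, per the labels' protocols) reached this work as 3 gene tables. Build hg38 and the tools DESeq2, edgeR, Salmon and STAR 2.7.8 appear in the submitters' processing notes, without roles, and the tool behind the tables is not stated. Per the file headers, the authors deposited log2 fold changes, log2 mean CPM, F scores and both raw p-values and adjusted ones, and these were read unchanged. The listing thresholds were checked on the values. No model was refitted, since there are no values per library.

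Each approximate SE is the size of the log2 fold change over the root of F, and 95% intervals use the degrees of freedom recovered from F and p (5.34 to 6.01). For 2 tables the number of genes tested was recovered by dividing the smallest adjusted p by its raw p. The SE, the degrees of freedom and the derived group levels were checked on data simulated from the same formulas, which checks the arithmetic only. The recovered number of genes tested was not checked this way. Positions came from GENCODE 29 (GRCh38), matched by Ensembl identifier. Of the 268, 261 and 884 listed genes, 257, 253 and 853 matched. Promoters came from RefSeq. Python 3.11.15, pandas 2.3.3 and scipy 1.17.1 were used.

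Named were the pair, TASOR and TASOR2, listed genes of the lists or within 1 Mb, and genes of like pattern. The pair and the lists were chosen with earlier results of these data known. Alternatives were other thresholds on fold and expression, other windows, protein-coding genes only, the unadjusted p and an SE from the p. Tables of transposable elements were not used here, and results for some subunit genes of the family are not reported here.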

Additional observations from a re-analysis of the deposited data

How the results depend on the processing

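GABRA3 (-1.29) and GABRE (-1.46) kept their deposited log2 fold changes by construction and passed 0.05 only by the unadjusted p (0.0397 and 0.0351). With the p read as normal their SEs were 0.63 and 0.70. With an absolute log2 fold change of at least 2, listed subunit genes covered numbered 0 with FLAG-TASOR and 1 with FLAG-TASOR2 (GABRG1, higher). Neither gene of the pair remained at that setting. Other GABA system genes numbered 1 in the knockout, and neighbours with FLAG-TASOR2 1. With expression at or above each table's median, these counts were in the same order 0, 1 (GABRE, lower), 1 and 2. Other GABA system genes with FLAG-TASOR2 were then 3. Neighbours with FLAG-TASOR2 were 0 within 500 kb and 13 within 2 Mb, all lower. The other counts stayed within 1.5 times. No paired analysis was possible because the tables hold no value per library, and leaving out a replicate was not run for the same reason. Depth per library is unknown, so no detection limit can be given.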
